A study of Mus musculus with 26 samples.

Results

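Integrins are adhesion receptors built from an alpha and a beta chain, and CD44 is the cell surface receptor for the matrix sugar hyaluronan. The transcripts described here are 9 adhesion receptor genes of T and NKT cells, 9 of the 23168 gene symbols measured in every library. They were picked by symbol: the alpha chains Itga1, Itga2, Itga4, Itgae and Itgal, the beta chains Itgb1, Itgb2 and Itgb7, and Cd44. RNA was measured in 26 libraries of thymocytes from C57BL/6 mice of 6 to 8 weeks. DN1eP (4 libraries) were precursors taken straight from the thymus as lineage-negative, CD44-positive, CD25-negative, CD24-low, CD5-positive, CD27-positive, Ly108-negative and CXCR3-positive cells with no Valpha14Jalpha18 TCR on the surface. DN1eP-NKT (4 libraries) carried that receptor after DN1eP had spent 10 days on an OP9/Dll-1 stromal monolayer, a mouse bone marrow stromal line that displays the Notch ligand Delta-like 1, with IL-2 and IL-7 at 5 ng/ml each. Thymic NKT cells, positive for the same TCR, were sorted as stage 1 (NKT-1, 5 libraries, negative for CD44 and NK1.1), stage 2 (NKT-2, 7 libraries, positive for CD44 and negative for NK1.1) and stage 3 (NKT-3, 6 libraries, positive for both). No genotype other than the strain was given. The labels do not say whether libraries of a group came from separate animals, so the p-values measure only the spread between these libraries.

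An integrin binds its ligand with high affinity after talin and kindlin attach to the beta chain's tail and the receptor changes shape. The alpha1 and alpha2 chains pair with beta1 and bind collagens, and alpha4 pairs with beta1 to bind VCAM-1 and fibronectin or with beta7 to bind the mucosal addressin MAdCAM-1. The alphaE chain (CD103) pairs with beta7 and binds E-cadherin on epithelial cells, and alphaL pairs with beta2 to form LFA-1, which binds the ICAM proteins. CD49a, CD103 and CD44 are widely used to mark lymphocytes that stay in tissues or have met antigen. All values here are transcript levels, and no surface protein or heterodimer was measured.

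Promoter windows are shown for Itga1, Itga2, Itga4 and Itgb1, which were all higher in NKT-3 than in NKT-1 and NKT-2. In DN1eP-NKT, Itga4 was lower than in NKT-1 and NKT-2, where Itga1 and Itga2 were higher. Each window runs from 250 bases before to 50 bases after the annotated start, 5′ to 3′ on the gene's strand, as RefSeq gives it on GRCm38.p6. Capitals mark matches, on either strand, to 4 short motifs. These were TGTGGT (RUNX), AGGTGTG (T-box), GGGCGG (SP/KLF) and GGAAGT (ETS), which overlap each other in none of the printed windows. The windows lie at chr13:115101915-115102214 (minus strand) for Itga1, chr13:114932051-114932350 (minus strand) for Itga2, chr2:79255176-79255475 (plus strand) for Itga4 and chr8:128685404-128685703 (plus strand) for Itgb1.
Itga1: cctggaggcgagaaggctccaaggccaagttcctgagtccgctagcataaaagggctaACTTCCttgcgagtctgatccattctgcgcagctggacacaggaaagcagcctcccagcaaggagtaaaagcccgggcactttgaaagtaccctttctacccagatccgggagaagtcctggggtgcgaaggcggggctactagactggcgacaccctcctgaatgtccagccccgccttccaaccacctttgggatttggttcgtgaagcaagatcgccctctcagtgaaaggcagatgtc
Itga2: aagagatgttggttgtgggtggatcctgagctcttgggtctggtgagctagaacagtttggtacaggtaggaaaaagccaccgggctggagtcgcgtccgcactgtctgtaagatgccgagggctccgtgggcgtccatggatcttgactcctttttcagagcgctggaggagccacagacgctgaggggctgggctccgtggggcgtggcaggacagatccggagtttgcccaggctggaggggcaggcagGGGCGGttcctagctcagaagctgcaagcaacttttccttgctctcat
Itga4: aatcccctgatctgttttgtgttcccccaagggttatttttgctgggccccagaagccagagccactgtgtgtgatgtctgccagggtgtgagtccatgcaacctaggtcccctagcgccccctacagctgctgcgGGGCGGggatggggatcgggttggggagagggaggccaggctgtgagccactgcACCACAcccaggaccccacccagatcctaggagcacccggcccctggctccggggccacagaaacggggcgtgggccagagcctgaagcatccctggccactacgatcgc
Itgb1: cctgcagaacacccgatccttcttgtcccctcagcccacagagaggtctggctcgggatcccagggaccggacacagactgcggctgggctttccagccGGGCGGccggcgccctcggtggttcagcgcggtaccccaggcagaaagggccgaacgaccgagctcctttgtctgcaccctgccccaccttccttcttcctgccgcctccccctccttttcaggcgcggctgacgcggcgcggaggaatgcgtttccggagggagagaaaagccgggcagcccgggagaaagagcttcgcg
The Itga1 window held an ETS match 192 bases before the start, and the Itga2 and Itgb1 windows each held an SP/KLF match, 3 bases after and 151 bases before the start. The Itga4 window held a RUNX match 60 bases and an SP/KLF match 114 bases before the start. Of 32851 mouse promoter windows of this length, 16.761% held the RUNX letters, 5.845% the T-box letters, 35.658% the SP/KLF letters and 23.771% the ETS letters. No motif was shared by Itga1 and the other printed windows, and the T-box letters stood in none of the 6 windows that could be matched (these 4, Itgb7 and Cd44). The matches are descriptions of letters, not binding sites.

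The 26 libraries fell into 2 sets of 13 that crossed the thymic stages, by each library's median over the genes that reached 1 FPKM in it (12.97 to 13.85 against 7.58 to 9.81 FPKM). The higher-median set held all DN1eP-NKT libraries, NKT-1 libraries 1 and 2, NKT-2 libraries 1 to 4 and NKT-3 libraries 1 to 3, and the lower-median set held all DN1eP libraries and the other NKT libraries. The labels name 2 library kits without saying which library had which, so kit and set cannot be compared. Within the thymic stages, 8 of the 9 members were higher in the higher-median set in the limma fit, where 52.3% of all genes were higher and 72.5% passed in either direction. The size ran from 2.40 ± 0.20 for Itgb7, 2.01 ± 0.14 for Itgb1 and 1.97 ± 0.18 for Itga4 down to 0.36 ± 0.14 for Itgae (log2 fold change of FPKM + 1 ± SE, adjusted p = 7.56e-11, 1.84e-12, 3.6e-10 and 0.0273). Itgb2 did not pass (-0.28 ± 0.15, adjusted p = 0.0967). Stage differences are therefore means of the differences inside each set, DN1eP was compared with lower-median and DN1eP-NKT with higher-median libraries, and values below are written with the higher-median libraries first. All 6 T cell markers listed (Cd3d, Cd3e, Cd3g, Cd247, Lck and Zap70) reached 1 FPKM in every group. Their sum was lower in DN1eP-NKT (1248 to 1798 FPKM) than in higher-median NKT-1 (1946 to 2627), NKT-2 (1806 to 2945) and NKT-3 (2640 to 3157). The NKT markers listed (Zbtb16, Il2rb, Klrb1c and Egr2) did not move together. In DN1eP-NKT Zbtb16 was at 4.51 to 6.90 FPKM and Il2rb at 470 to 530. Higher-median NKT-1 and NKT-2 libraries held 47.1 to 113 and 121 to 227. Summed markers of other cells moved with some libraries: stroma stood at 70.6 to 352.8 FPKM in DN1eP-NKT and at most at 1.57 elsewhere, myeloid markers at 360 in DN1eP library 1 and 21.4 to 33.0 in the others, and mast cell markers at 56.3 in DN1eP library 1 and 380 to 450 in the others. Among the libraries DN1eP was compared with, mast cell markers stood at 73.4 in NKT-1 library 3, and myeloid markers at 62.0 in NKT-2 library 6, 25.4 in NKT-3 library 5 and 11.4 in NKT-1 library 3. B cell markers stood at 141 FPKM in NKT-2 library 6, 42.6 in NKT-3 library 5 and 20.8 to 46.0 in DN1eP, and erythroid markers at 326 in NKT-3 library 5. In such bulk samples fewer cells of a type and less RNA per cell cannot be told apart.

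NKT-3 cells differed from NKT-2 cells in most of these genes, and all that passed were higher. Of the 9 members, 6 passed and all 6 were higher in NKT-3, where 29.0% of all 11663 tested genes passed and 10.6% were higher (limma, adjusted p under 0.05). These were the collagen-binding chains Itga1 and Itga2, their partner Itgb1, the VCAM-1-binding chain Itga4, the E-cadherin-binding chain Itgae, and Cd44. The LFA-1 chains Itgal and Itgb2 and the beta7 chain Itgb7 did not pass. Against NKT-1, 5 of the 8 members counted were higher and 0 lower, beside 10.6% of all genes higher and 37.2% in either direction. Cd44 is left out of every count that involves NKT-1, because the sort separated NKT-1 from the later stages on CD44. The median log2 difference of NKT-3 minus NKT-2 was 0.78 over the 9 members and -0.06 over all genes tested.

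Itga1, at chr13:115748289-115892172 (mm9), encodes CD49a, the collagen-binding alpha1 chain. In NKT-3, the higher-median libraries held 32.4, 30.1 and 23.1 FPKM and the lower-median libraries 8.06, 6.18 and 5.48. The 7 NKT-2 libraries ran from 0 to 0.205 FPKM with a median of 0.0575, and the NKT-1 libraries were at 0.0107, 0, 0.0164, 0.116 and 0. Every NKT-3 library thus lay above every NKT-1 and NKT-2 library, with no overlap in either set. The difference was 3.79 ± 0.22 against NKT-2 and 3.85 ± 0.24 against NKT-1 (log2 fold change of FPKM + 1 ± SE, limma adjusted p = 1.11e-12 and 3.18e-12). Because 1 is added to values near 0, these sizes understate the change, and with 0.1 added they were 6.43 and 6.84. The rise from NKT-2 was 4.69 ± 0.30 in the higher-median and 2.88 ± 0.32 in the lower-median set. The test of that difference between sets missed the threshold (1.81 ± 0.44, limma adjusted p = 0.0759), as did the same test against NKT-1 (2.02 ± 0.48, adjusted p = 0.067). Itga1 reached 1 FPKM in 14 libraries, all of them NKT-3, DN1eP or DN1eP-NKT, so it entered the test through the groups in which it was high.

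**Figure D1:**
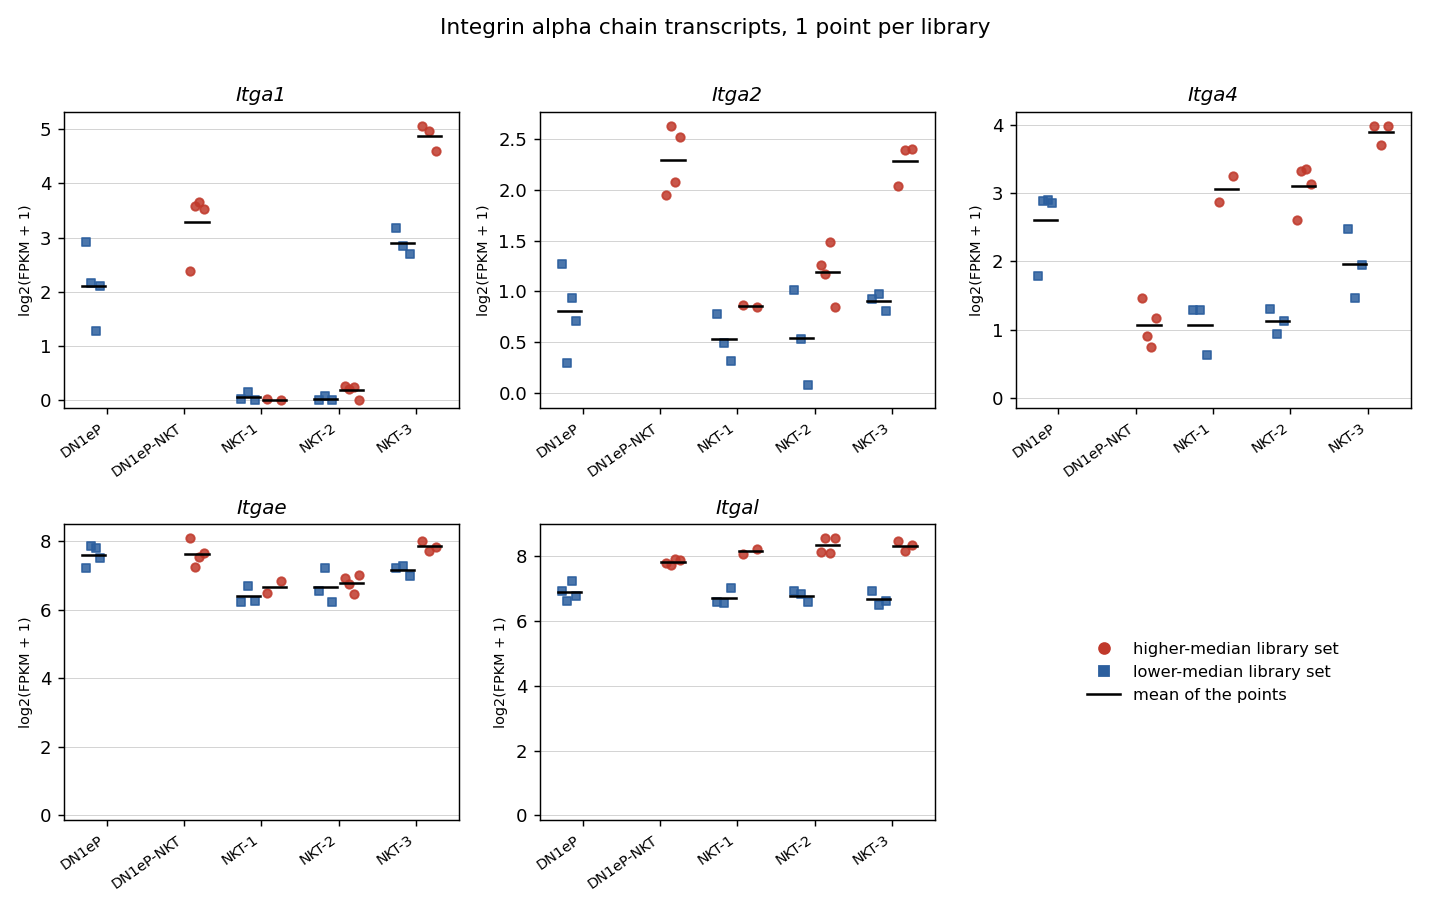
Transcript levels of the integrin alpha chains, as log2(FPKM + 1) on the vertical axis, by group, with 1 point per library and bars at the mean of the points of each set. Itga1 lies near 0 in all NKT-1 and NKT-2 libraries and between 5.48 and 32.4 FPKM in NKT-3, while Itgal separates by library set and little by group.

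Itga2, at chr13:115626120-115722249 (mm9), encodes the collagen-binding alpha2 chain (CD49b), a common NK cell marker, and its row ends 26039 bases before that of Itga1 on the same chromosome. NKT-3 held 3.12, 4.26 and 4.30 FPKM in the higher-median and 0.903, 0.967 and 0.751 in the lower-median set. NKT-2 ran from 0.0563 to 1.80 FPKM with a median of 1.02, and NKT-1 held 0.818, 0.803, 0.720, 0.404 and 0.247. The NKT-3 libraries were clear of both earlier stages in the higher-median set but overlapped NKT-2 in the lower-median set. NKT-3 was higher than NKT-2 by 0.73 ± 0.19 (limma adjusted p = 0.00438) and higher than NKT-1 by 0.90 ± 0.21 (adjusted p = 0.00115). Inside the sets the difference from NKT-2 was 1.09 ± 0.26 and 0.36 ± 0.28, and the latter did not pass (adjusted p = 0.493). The deposited 95% interval of Itga2 was wide, with a median half-width of 35.1% of the value over the libraries.

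Itgb1, at chr8:131209554-131257479 (mm9), encodes the beta1 chain that alpha1, alpha2 and alpha4 share. NKT-3 held 124, 126 and 120 FPKM in the higher-median and 30.5, 35.1 and 28.2 in the lower-median set. NKT-2 held 46.3, 61.1, 58.5 and 47.5 against 10.7, 11.7 and 8.38, and NKT-1 held 36.9 and 38.2 against 12.2, 11.1 and 7.16. In each set all NKT-3 libraries lay above all others of the thymic stages. The rise was 1.36 ± 0.16 from NKT-2 and 1.62 ± 0.18 from NKT-1 (limma adjusted p = 3.58e-07 and 6.99e-08), and 1.20 ± 0.22 and 1.53 ± 0.24 from NKT-2 inside the higher-median and lower-median sets. Against NKT-2, 5 members passed in the higher-median set (Itga1, Itga2, Itgae, Itgb1 and Cd44), where 21.6% of all genes passed, and 2 in the lower-median set (Itga1 and Itgb1), where 11.7% passed.

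Itga4, at chr2:79095583-79173271 (mm9), encodes the alpha4 chain (CD49d). NKT-3 held 14.9, 12.1 and 14.8 FPKM in the higher-median and 4.59, 1.75 and 2.84 in the lower-median set. NKT-2 held 5.12, 9.03, 9.21 and 7.76 against 1.47, 0.912 and 1.19, and NKT-1 held 6.34 and 8.54 against 1.44, 1.45 and 0.541. NKT-3 did not overlap the earlier stages in either set. It was higher by 0.81 ± 0.21 than NKT-2 and by 0.86 ± 0.23 than NKT-1 (limma adjusted p = 0.0046 and 0.00469). Inside the sets the difference from NKT-2 was similar in size, 0.79 ± 0.29 and 0.84 ± 0.31, and missed the threshold in each (adjusted p = 0.0531 and 0.0842).

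Itgae, at chr11:72904097-72960951 (mm9), encodes CD103. NKT-3 held 260, 209 and 228 FPKM in the higher-median and 149, 156 and 126 in the lower-median set. NKT-2 held 121, 107, 87.3 and 129 against 93.0, 148 and 74.6, and NKT-1 held 89.5 and 113 against 74.7, 104 and 75.8. NKT-3 lay above both stages in the higher-median set, while NKT-2 library 6 reached the NKT-3 range in the lower-median set. NKT-3 was higher by 0.78 ± 0.17 than NKT-2 and by 0.98 ± 0.18 than NKT-1 (limma adjusted p = 0.000659 and 0.00012). Against NKT-2 it passed in the higher-median set (1.07 ± 0.23, adjusted p = 0.000966) and not in the lower-median set (0.50 ± 0.24, adjusted p = 0.218), and the difference between sets did not pass (0.57 ± 0.33, adjusted p = 1). Itgb7, at chr15:102046426-102062366 (mm9), the beta chain that CD103 needs, held 164, 165 and 166 FPKM in the higher-median and 33.5, 42.0 and 24.0 in the lower-median NKT-3 libraries. NKT-2 held 164, 154, 134 and 167 against 36.9, 43.6 and 17.6, and NKT-1 held 124 and 144 against 33.8, 30.5 and 9.27. The stages overlapped, and NKT-3 minus NKT-2 was 0.09 ± 0.23 (limma adjusted p = 0.821). The ratio of Itgb7 to Itgb1 FPKM ran from 0.849 to 1.39 over the 6 NKT-3 libraries and from 1.30 to 3.77 over NKT-1 and NKT-2, with NKT-1 library 5 the lowest of the latter.

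Itgal, at chr7:134439774-134478651 (mm9), and Itgb2, at chr10:76993093-77028419 (mm9), encode the chains of LFA-1, the main ICAM receptor of lymphocytes. Itgal held 356, 282 and 321 FPKM in the higher-median and 121, 88.3 and 97.1 in the lower-median NKT-3 libraries. NKT-2 held 280, 372, 272 and 374 against 121, 114 and 93.9, and NKT-1 held 267 and 299 against 95.6, 93.2 and 128. The set, and not the stage, separated these values. NKT-3 minus NKT-2 was -0.06 ± 0.13 (limma adjusted p = 0.784) and NKT-3 minus NKT-1 was 0.06 ± 0.14 (adjusted p = 0.78). For Itgb2 the sets overlapped in NKT-3, with 340, 304 and 299 FPKM in the higher-median and 487, 287 and 354 in the lower-median libraries. NKT-2 held 231, 287, 233 and 299 against 349, 171 and 310, and NKT-1 held 213 and 248 against 318, 312 and 426. NKT-3 minus NKT-2 was 0.37 ± 0.18 with overlapping libraries (limma adjusted p = 0.122), and it passed with upper-quartile scaling (0.48, adjusted p = 0.0311) and quantile normalization (0.42, adjusted p = 0.011). The ratio of Itgal to Itgb2 FPKM was 0.928 to 1.30 in the higher-median and 0.248 to 0.663 in the lower-median thymic NKT libraries, so the balance of the LFA-1 transcripts followed the library set.

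Cd44, at chr2:102651300-102741822 (mm9), was part of the sort. It was at 4.98, 3.45, 4.72, 3.69 and 2.22 FPKM in NKT-1 and ran from 27.5 to 75.9 in NKT-2 with a median of 48.4. That separation follows the gate and is no finding. NKT-2 and NKT-3 were both gated as positive, and there the level still differed: NKT-3 held 131, 134 and 145 FPKM against 78.8, 52.0 and 56.8, above the NKT-2 libraries of the same set (48.4, 75.9, 57.7 and 55.8 against 27.5, 42.9 and 34.7). The difference was 1.01 ± 0.20 (limma adjusted p = 0.000268), 1.20 ± 0.27 in the higher-median set and 0.82 ± 0.29 in the lower-median set, where it missed the threshold (adjusted p = 0.065).

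**Figure D2:**
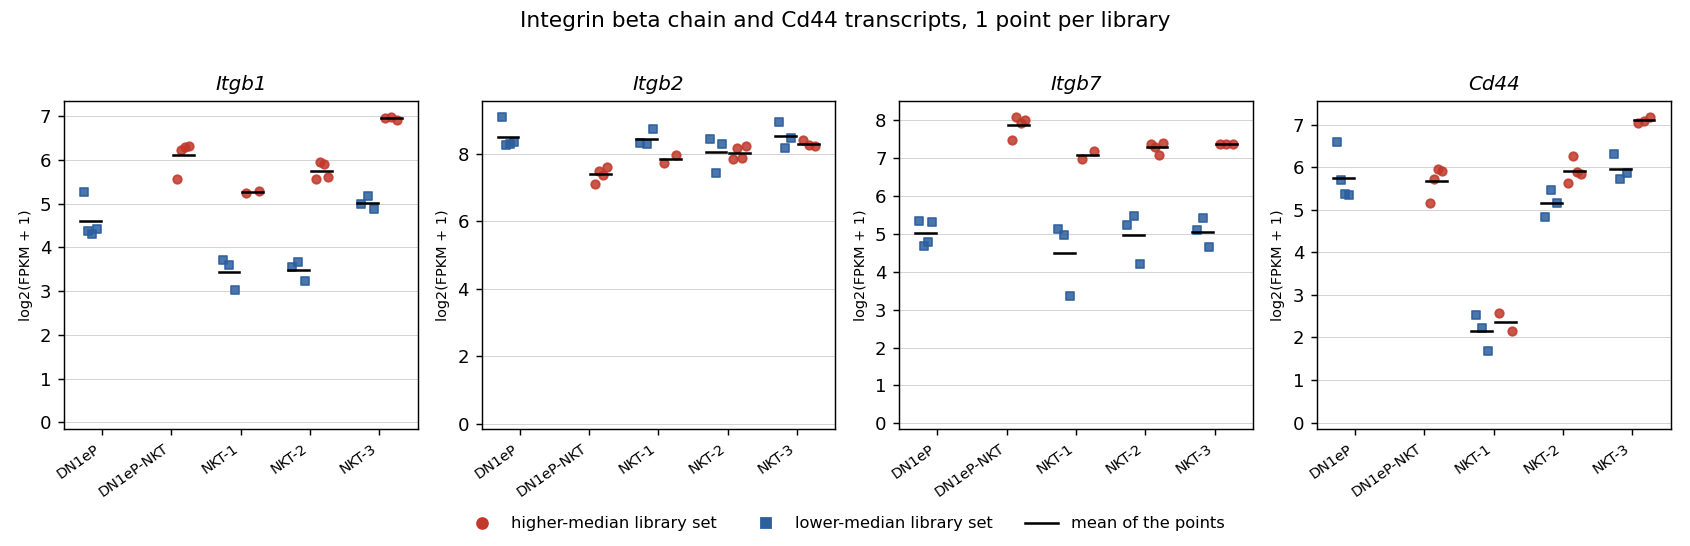
Transcript levels of the beta chains and Cd44, as log2(FPKM + 1) on the vertical axis, by group, with 1 point per library and bars at the mean of the points of each set. Itgb1 and Cd44 are highest in NKT-3 within each thymic set, Itgb7 separates by library set, and Cd44 is low in NKT-1, which was gated as CD44-negative.

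Between NKT-1 and NKT-2 cells no member passed. In limma 0 of the 8 members counted passed, with 0 at an unadjusted p under 0.05, where 0.566% of all genes were higher and 0.437% lower (117 of 11663 in all). The largest differences were 0.35 ± 0.25 for Itgb7 and 0.26 ± 0.17 for Itgb1 (adjusted p = 0.667 and 0.639). In the higher-median set all 4 NKT-2 libraries lay above both NKT-1 libraries in Itgb1 (0.49 ± 0.25, adjusted p = 1), and in the lower-median set they overlapped. For the 8 members the order along the thymic stages was therefore NKT-3 above NKT-2 and NKT-1 for Itga1, Itga2, Itga4, Itgae and Itgb1, with the latter stages not separated, and no tested order for Itgal, Itgb2 and Itgb7. With upper-quartile scaling and quantile normalization NKT-3 minus NKT-1 passed for Itgb2 (0.48 and 0.48, limma adjusted p = 0.0428 and 0.00777) and Itgb7 (0.65 and 0.64, adjusted p = 0.047 and 0.0253).

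All 6 differences between NKT-3 and NKT-2 passed whichever single library of the 2 groups was left out, and also when the NKT libraries with the most B cell markers (library 6 of NKT-2 and library 5 of NKT-3) were left out together. In a fit of the lower-median libraries alone, Itga1 and Itgb1 passed and the others did not (Itgae 0.50, Cd44 0.82, Itga4 0.84 and Itga2 0.36, adjusted p = 0.327, 0.165, 0.223 and 0.578).

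**Figure D3:**
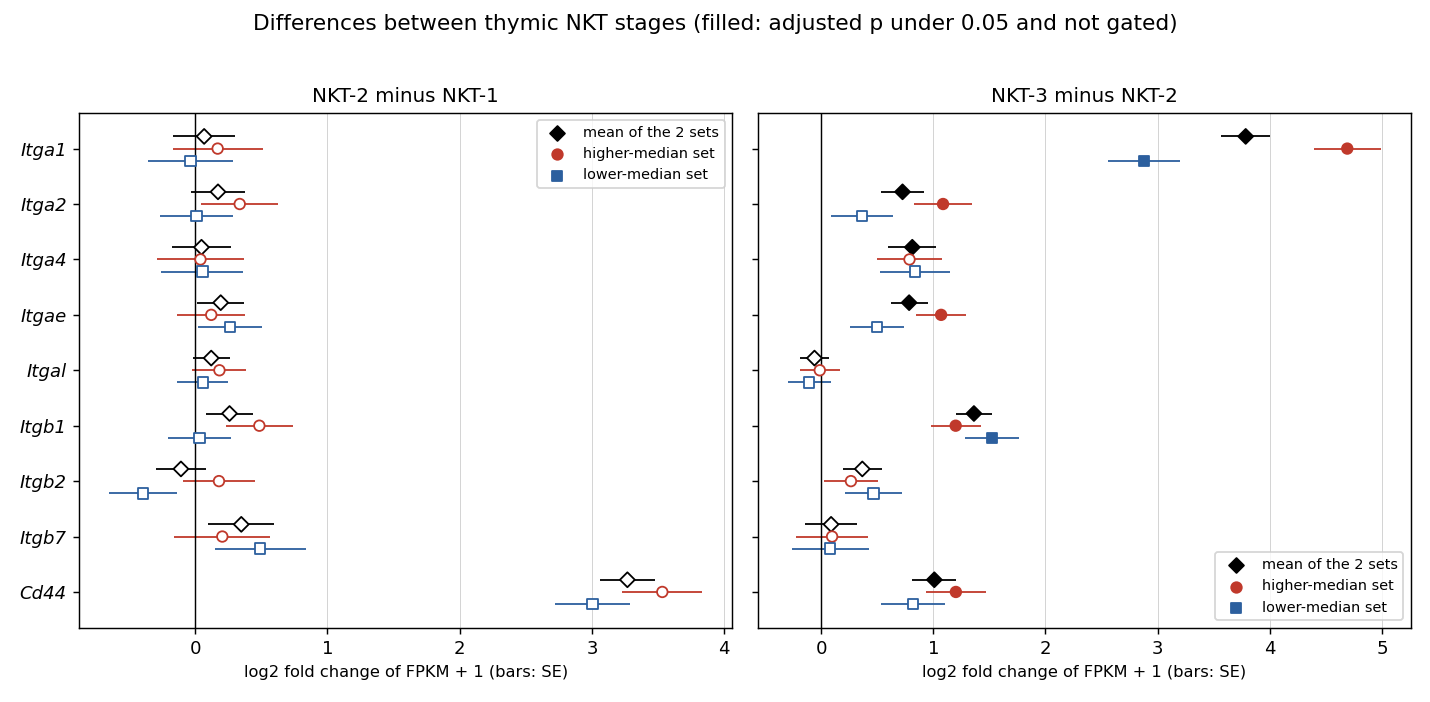
Differences between thymic stages for the 9 members, as log2 fold change of FPKM + 1 on the horizontal axis with SE bars, as the mean of both sets and inside each set. Filled points passed at an adjusted p under 0.05, and Cd44 against NKT-1 is open because it was gated. In NKT-2 minus NKT-1 no point is filled, and in NKT-3 minus NKT-2 Itga1 (3.79) and Itgb1 (1.36) lead.

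DN1eP precursors held more transcript of 4 members than NKT-1 and NKT-2 cells did. Against NKT-1, 4 of the 8 members counted were higher and 0 lower, where 14.7% of all genes were higher and 33.7% passed. Against NKT-2 the same 4 of 9 were higher and 0 lower, where 17.9% of all genes were higher and 29.5% passed. They were Itga1, Itga4, Itgae and Itgb1, which also were higher in NKT-3. Itga2, Itgal, Itgb2 and Itgb7 passed in neither comparison. The DN1eP libraries are shared by all their comparisons.

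Itga1 was at 6.53, 3.47, 1.42 and 3.29 FPKM in DN1eP, above all lower-median NKT-1 and NKT-2 libraries, which reached 0.116 at most. The difference was 2.05 ± 0.30 against NKT-1 and 2.09 ± 0.30 against NKT-2 (limma adjusted p = 1.05e-05 and 1.21e-05). Itga4 was at 2.44, 6.40, 6.48 and 6.27 FPKM, above the 0.541 to 1.47 FPKM of the lower-median NKT-1 and NKT-2 libraries. It was higher by 1.54 ± 0.29 and 1.48 ± 0.29 (limma adjusted p = 0.000223 and 0.000447). Library 1 stood apart with the lowest value, and it also had the highest sum of myeloid and the lowest sum of mast cell markers in DN1eP. That myeloid sum came mostly from Mpo and Elane (271 and 87.1 FPKM). Cd14 was at 0, and Itgam, at 0.120 FPKM, was the lowest of the DN1eP libraries. The mast cell sum differed mostly in Prss34, at 36.7 FPKM against 334 to 375. Itgae was at 147, 232, 222 and 182 FPKM, higher than NKT-1 by 1.19 ± 0.23 (limma adjusted p = 0.000237) with no overlap. It was higher than NKT-2 by 0.93 ± 0.23 (adjusted p = 0.00302), although NKT-2 library 6 at 148 FPKM overlapped DN1eP library 1, and this call was lost in a fit of the compared groups alone (0.93, adjusted p = 0.0527). Itgb1 was at 37.2, 19.8, 18.8 and 20.3 FPKM, against 7.16 to 12.2 in the lower-median NKT-1 and NKT-2 libraries. It was higher by 1.14 ± 0.22 and 1.11 ± 0.22 (limma adjusted p = 0.000341 and 0.000613), and without library 1, the highest, by 0.92 against NKT-1 and 0.89 against NKT-2, which still passed.

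The other members of DN1eP overlapped the thymic NKT stages of their set, except Cd44 against NKT-1, which was gated negative. Itga2 was at 1.42, 0.227, 0.912 and 0.639 FPKM, Itgal at 119, 96.7, 149 and 108, and Itgb7 at 39.2, 24.7, 26.3 and 38.4. Itgb2 was at 548, 304, 313 and 326 FPKM, with library 1 the highest of all 26 libraries. Cd44, gated positive in DN1eP, was at 94.7, 51.1, 40.5 and 39.7 FPKM, again highest in library 1. It differed from NKT-2 by 0.60 ± 0.27 and from NKT-3 by -0.21 ± 0.27, and neither passed (limma adjusted p = 0.0924 and 0.624). The part of the myeloid markers in the high Itgb1, Itgb2 and Cd44 of library 1 was not tested.

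Against NKT-3, 0 of the 9 members passed in limma, where 20.6% of all genes did, and 2 had an unadjusted p under 0.05. These were Itga1 (-0.79 ± 0.30, adjusted p = 0.0604) and Itga4 (0.65 ± 0.29, adjusted p = 0.118). Without DN1eP library 1, 3 members passed: Itga1 (-1.06, adjusted p = 0.00643) and Itgb1 (-0.64, adjusted p = 0.0211) were lower than in NKT-3, and Itga4 (0.92, adjusted p = 0.012) was higher. Without NKT-3 library 4, Itga4 alone passed (0.91, adjusted p = 0.0483). Over the 7 fits with a library left out, 0 to 3 members passed, beside 1287 to 3272 of all 11663 genes. Upper-quartile scaling and quantile normalization each called Itga1 (-1.07 and -1.02) and Itgb1 (-0.70 and -0.64) lower. Library weights called Itga1 (-0.84) lower and Itga4 (0.80) higher, and an additive set term called Itga1 (-1.42) lower.

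DN1eP-NKT cells, grown in culture, held more Itga1, Itga2 and Itgae than NKT-1 and NKT-2 cells and less Itga4 than any thymic stage. Against NKT-1, 4 of the 8 members counted were higher and 1 lower, where 15.2% of all genes passed, 8.49% higher and 6.76% lower. Against NKT-2, 3 of 9 were higher and 3 lower, where 19.1% of all genes passed, 11.1% higher and 7.97% lower. Against NKT-3, 0 were higher and 5 lower, where 23.4% of all genes passed and 8.39% were lower. Stroma markers were high in every DN1eP-NKT library (70.6, 241, 353 and 348 FPKM in libraries 1 to 4). Summed T cell markers (1248 to 1798 FPKM) were lower than in any higher-median NKT library. The part of either in the values of this group was not tested.

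**Figure D4:**
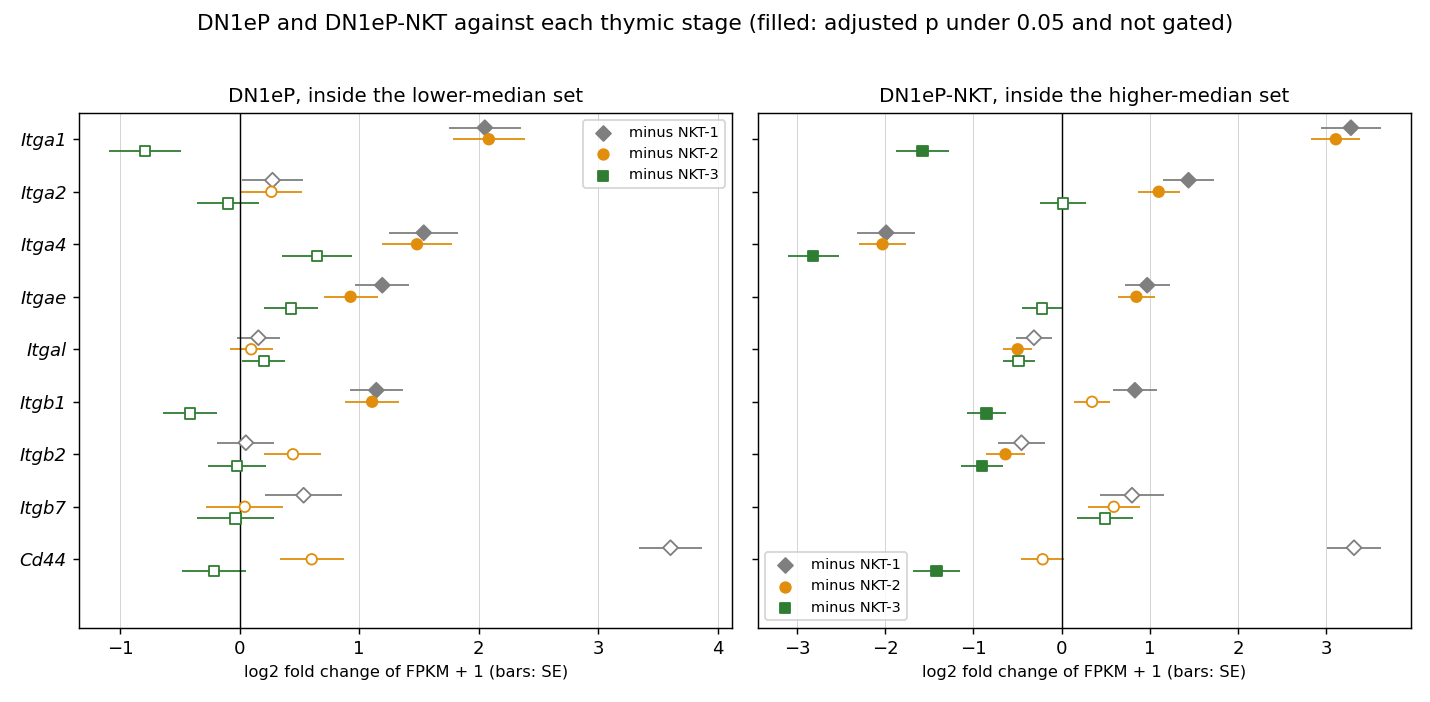
DN1eP (left, inside the lower-median set) and DN1eP-NKT (right, inside the higher-median set) against each thymic stage, as log2 fold change of FPKM + 1 on the horizontal axis with SE bars. Filled points passed at an adjusted p under 0.05 and were not gated. Itga4 lies to the right of NKT-1 and NKT-2 in DN1eP (1.54 and 1.48) and to their left in DN1eP-NKT (-1.99 and -2.03).

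Itga4 was at 1.77, 0.876, 0.672 and 1.26 FPKM in DN1eP-NKT. Every higher-median NKT library held 5.12 FPKM or more, so the groups did not overlap. The log2 difference was -1.99 ± 0.33 against NKT-1, -2.03 ± 0.27 against NKT-2 and -2.82 ± 0.29 against NKT-3 (limma adjusted p = 6.2e-05, 1.96e-06 and 3.09e-08). The ratio of Itga4 to Itgb1 FPKM was 0.00863 to 0.0381 in DN1eP-NKT and 0.0962 to 0.224 in the higher-median NKT libraries. Itga4 is the member for which DN1eP and DN1eP-NKT lay on opposite sides of NKT-1 and NKT-2.

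Itga1 was at 4.21, 11, 11.6 and 10.5 FPKM in DN1eP-NKT, above NKT-1 and NKT-2 and below NKT-3 in every higher-median library. The difference was 3.28 ± 0.34 against NKT-1, 3.11 ± 0.28 against NKT-2 and -1.58 ± 0.30 against NKT-3 (limma adjusted p = 5.36e-08, 2.83e-09 and 0.000239). The call against NKT-3 was lost with an additive set term (-0.96, adjusted p = 0.05) and with no set in the fit (-0.60, adjusted p = 0.303). Itga2 was at 2.86, 5.21, 3.22 and 4.73 FPKM, higher than NKT-1 by 1.44 ± 0.29 and than NKT-2 by 1.10 ± 0.24 (adjusted p = 0.000735 and 0.00114). It overlapped NKT-3 (0.01 ± 0.26, adjusted p = 0.984). Itgae was at 273, 153, 185 and 200 FPKM, higher than NKT-1 by 0.97 ± 0.26 and than NKT-2 by 0.85 ± 0.21 (limma adjusted p = 0.00852 and 0.00397), and it overlapped NKT-3 (-0.22 ± 0.23, adjusted p = 0.54). Without NKT-1 library 1 the difference from NKT-1 did not pass (0.80, adjusted p = 0.15).

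Itgb1 was at 46.4, 73.3, 77.9 and 78.3 FPKM, above NKT-1, overlapping NKT-2 and below NKT-3. The difference was 0.83 ± 0.25, 0.34 ± 0.21 and -0.86 ± 0.22 (limma adjusted p = 0.0245, 0.291 and 0.00571). The call against NKT-1 was lost without DN1eP-NKT library 2, 3 or 4 (0.79, 0.76 and 0.76, adjusted p = 0.0565, 0.0645 and 0.0657) or NKT-1 library 1 or 2 (0.81 and 0.85, adjusted p = 0.149 and 0.133), or in a fit of the compared groups alone (0.83, adjusted p = 0.0503). With library weights Itgb1 passed against NKT-2 (0.44, adjusted p = 0.0292). Library 1 held the lowest Itga1, Itga2, Itgb1, Itgb2, Itgb7 and Cd44 of the 4 and the highest Itga4 and Itgae. Its Itgal lay inside the range of the others. It also had the lowest sum of stroma markers (70.6 FPKM against 241 to 353). The part of stromal transcripts in the values of any of these members was not tested.

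Both LFA-1 chains were lower in the cultured cells than in NKT-2. Itgal was at 220, 212, 241 and 236 FPKM, below every higher-median NKT library. It fell by 0.50 ± 0.17 against NKT-2 (limma adjusted p = 0.0355) and missed the threshold against NKT-3 (-0.49 ± 0.18, adjusted p = 0.0514, and 0.00591 to 0.0452 under 6 alternatives where it passed) and NKT-1 (-0.31 ± 0.20, adjusted p = 0.381). Itgb2 was at 136, 181, 164 and 195 FPKM, also below every higher-median NKT library. It fell by 0.64 ± 0.22 against NKT-2 and by 0.90 ± 0.24 against NKT-3 (limma adjusted p = 0.0438 and 0.00628), with -0.46 ± 0.27 against NKT-1 (adjusted p = 0.325). Both calls against NKT-2 were near the threshold. Itgal lost its call without any single DN1eP-NKT library (-0.49, -0.47, -0.53 and -0.52 without libraries 1 to 4, adjusted p = 0.0627, 0.0938, 0.0504 and 0.0564) and without NKT-2 library 2 or 4 (-0.43 each, adjusted p = 0.118 and 0.115). Itgb2 lost it without DN1eP-NKT library 1, 2 or 3 (-0.54, -0.67 and -0.63, adjusted p = 0.126, 0.0638 and 0.0854) and without NKT-2 library 2, 3 or 4 (-0.59, -0.69 and -0.57, adjusted p = 0.109, 0.0548 and 0.116). Itgb2 also lost it with 0.1 added, no filter, an additive set term or no set (-0.64, -0.64, -0.54 and -0.65, adjusted p = 0.0512, 0.0568, 0.0676 and 0.0533). With an additive set term or no set it passed against NKT-1 (-0.67 and -0.81, adjusted p = 0.038 and 0.0176).

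Itgb7 was at 175, 272, 240 and 257 FPKM, above every higher-median NKT library (124 to 167), but it passed in none of the 3 comparisons (0.80 ± 0.36, 0.59 ± 0.30 and 0.49 ± 0.32 against NKT-1, NKT-2 and NKT-3, limma adjusted p = 0.165, 0.189 and 0.299). With library weights it passed in all 3 (0.91, 0.72 and 0.60, adjusted p = 0.0261, 0.0172 and 0.0328). It also passed against NKT-1 with quantile normalization (0.91, adjusted p = 0.0419), an additive set term (0.92, adjusted p = 0.0248) or no set (2.35, adjusted p = 0.0268), and against NKT-2 in a fit of the compared groups alone (0.59, adjusted p = 0.0299). Cd44 was at 34.6, 52.1, 60.6 and 58.8 FPKM. It overlapped NKT-2 (-0.22 ± 0.25, limma adjusted p = 0.634) and was lower than NKT-3, which held 131 to 145 FPKM (-1.42 ± 0.27, adjusted p = 0.000229). The ratio of Itgb7 to Itgb1 FPKM, 3.08 to 3.78, lay in the range of the higher-median NKT-1 and NKT-2 libraries (2.29 to 3.77) except for its highest value, and above that of NKT-3 (1.31 to 1.39).

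DN1eP and DN1eP-NKT never shared a library set, so their difference was taken after subtracting the difference between sets seen in the thymic stages. Whether DN1eP and DN1eP-NKT carry the same difference between sets was assumed and could not be measured. With the subtraction 3 of 9 members were lower in DN1eP-NKT and 0 higher, where 31.6% of all genes passed and 16.6% were lower. Without it 5 were higher and 2 lower, where 69.4% of all genes passed, 47.3% higher and 22.1% lower. Itga4 was lower either way, by -3.50 ± 0.32 with and -1.53 ± 0.27 without the subtraction (limma adjusted p = 1.25e-08 and 1.72e-05). Itgb2 was also lower either way, by -0.82 ± 0.27 and -1.10 ± 0.22 (adjusted p = 0.0208 and 9.57e-05). Its subtracted call was lost without DN1eP library 1 (-0.62, adjusted p = 0.0579), without DN1eP-NKT library 1 (-0.72, adjusted p = 0.0503) and without both (-0.52, adjusted p = 0.12).

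The other members depended on the subtraction. Itgal libraries were all higher in DN1eP-NKT (0.95 ± 0.17 as measured, adjusted p = 1.73e-05), and the subtraction turned this to -0.59 ± 0.20 (limma adjusted p = 0.0287). That call was lost without DN1eP library 3 (-0.47, adjusted p = 0.0917), DN1eP-NKT library 2 (-0.55, adjusted p = 0.0628) or NKT-1 library 2 (-0.56, adjusted p = 0.0523). Itgb1 was 1.51 ± 0.21 as measured and -0.50 ± 0.25 after it (adjusted p = 5.18e-07 and 0.128), and Itgb7 was 2.85 ± 0.30 and 0.45 ± 0.36 (adjusted p = 6.57e-09 and 0.362). Itga1 and Itga2 kept a positive sign, at 1.18 ± 0.28 and 1.49 ± 0.24 as measured and 0.49 ± 0.34 and 0.70 ± 0.29 after it, and the latter values did not pass (limma adjusted p = 0.278 and 0.0637). Leaving out DN1eP library 1 brought Itga2 past the threshold (0.86, adjusted p = 0.021), as did leaving out DN1eP-NKT library 1 (0.82, adjusted p = 0.0384) or NKT-2 library 7 (0.78, adjusted p = 0.0369), and without DN1eP-NKT library 1 Itga1 passed (0.79, adjusted p = 0.0498). Library weights brought both past it (0.77 for Itga1 and 0.91 for Itga2, adjusted p = 0.0375 and 0.0134). Itgae and Cd44 passed on neither basis (Itgae -0.32 ± 0.25 and Cd44 -0.77 ± 0.30 after the subtraction, adjusted p = 0.357 and 0.0512). Cd44 came past the threshold without DN1eP library 3 or 4, DN1eP-NKT library 3, NKT-1 library 2 or 3, NKT-2 library 1 or 6, or NKT-3 library 4, with values from -0.90 to -0.80 and adjusted p from 0.0311 to 0.0461, and with a filter at 5 FPKM (-0.77, adjusted p = 0.0498) or an additive set term (-0.80, adjusted p = 0.0481).

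Among the other genes of the integrin system, the beta3 chain was lower in NKT-3 than in NKT-2, where all members that passed were higher. Of 18 further integrin chains listed, 7 were expressed enough to be tested, and in NKT-3 minus NKT-2 only Itgb3 passed, beside 29.0% of all genes (median difference of the 7 -0.24, against -0.06 over all genes). Itgb3 encodes the partner of alphaV in the vitronectin receptor. It was at 44.5, 95.3, 58.6 and 76.8 FPKM against 13.3, 14.2 and 12.1 in NKT-2 and at 10.2, 15.2 and 14.4 against 2.94, 1.15 and 2.58 in NKT-3. It fell by 2.22 ± 0.19 against NKT-2 and by 2.70 ± 0.21 against NKT-1 (limma adjusted p = 1.01e-09 and 1.3e-10), with no overlap in either set. In DN1eP-NKT it stood at 212, 179, 233 and 230 FPKM. It was higher than NKT-1 by 1.26 ± 0.29, than NKT-2 by 1.67 ± 0.24 and than NKT-3 by 3.92 ± 0.26 (limma adjusted p = 0.00282, 6.89e-06 and 1.7e-11). In these comparisons 2, 3 and 2 of the 7 chains were higher and 0 lower, beside 15.2%, 19.1% and 23.4% of all genes passing in either direction. The others were Itgb5 in each and Itgav against NKT-2. Itgb5 reached 1 FPKM in 2 libraries outside DN1eP-NKT, so it entered the test only through that group. Against NKT-1 and NKT-2, Itga1, Itga2 and Itgae were also higher in DN1eP-NKT, and Itga4 was lower. DN1eP held 6.18, 12.4, 13.9 and 10.8 FPKM of Itgb3, with a difference of 1.87 ± 0.26 from NKT-3 and of -0.87 ± 0.26 from NKT-1 (limma adjusted p = 7.72e-05 and 0.0108). Of the 7 chains, 1 was higher and 1 lower in DN1eP than in NKT-1, beside 33.7% of all genes passing in either direction. Against NKT-2 1 was higher, and against NKT-3 2 were, with 0 lower, beside 29.5% and 20.6%.

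Of 16 integrin ligands listed, 11 were tested, and 2 were higher in NKT-3 than in NKT-2 with 0 lower, beside 10.6% of all genes higher and 29.0% in either direction (median difference 0.03). Cdh1 encodes E-cadherin, the ligand of the CD103 integrin. It was at 43.4, 38.0 and 36.9 FPKM against 19.4, 29.6 and 24.5 in NKT-3 and ran from 1.54 to 4.57 in NKT-2. It rose by 3.16 ± 0.23 (limma adjusted p = 7.36e-11), with no overlap. Cdh1 was also higher in DN1eP than in NKT-1 by 2.43 ± 0.32 (adjusted p = 1.99e-06) and stood at 34.5 to 38.2 FPKM in DN1eP-NKT. Icam1, an LFA-1 ligand, was at 52.2, 37.4 and 46.9 FPKM against 23.1, 20.9 and 17.3 in NKT-3, and rose by 1.10 ± 0.16 from NKT-2 (limma adjusted p = 8.85e-06). In DN1eP it was at 27.6 to 46.2 FPKM, higher than in NKT-2 by 1.71 ± 0.22 (adjusted p = 3.03e-06). Fibronectin (Fn1) ran from 6.86 to 63.6 FPKM and the collagen chain Col1a2 from 4.57 to 38.5 in DN1eP-NKT. Elsewhere they reached 0.697 and 0.138 FPKM at most, so they entered the test only through the group in which they were high, and both are among the 7 stroma markers.

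**Figure D5:**
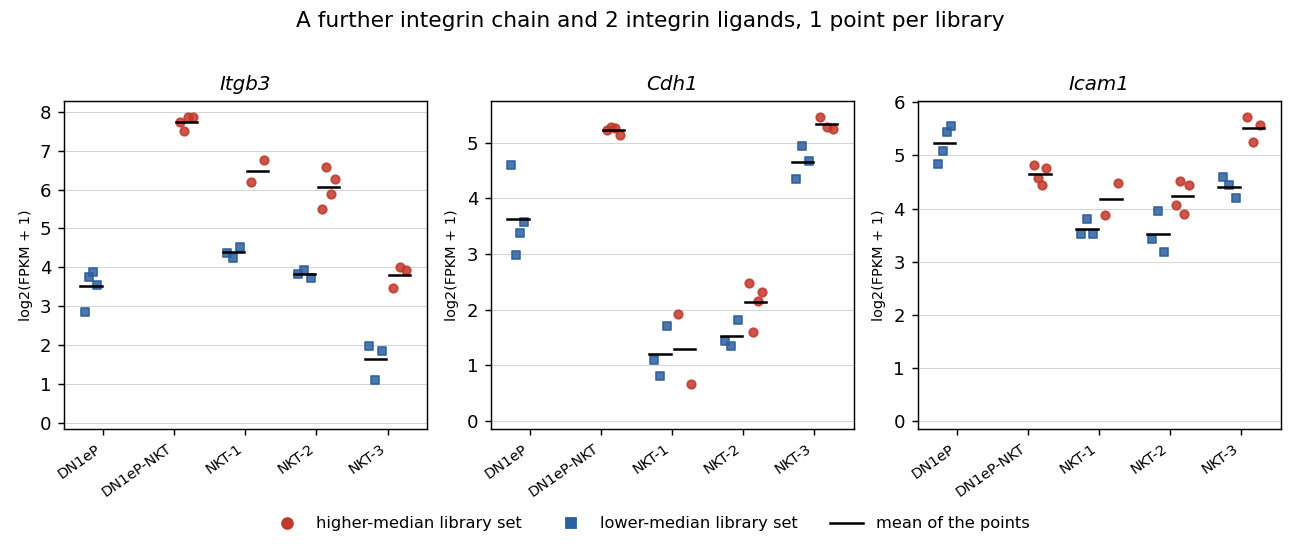
Transcript levels of Itgb3 and of the integrin ligand genes Cdh1 and Icam1, as log2(FPKM + 1) on the vertical axis, by group, with 1 point per library and bars at the mean of the points of each set. Among the thymic NKT stages of each set, Itgb3 is lowest and Cdh1 and Icam1 are highest in NKT-3.

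Of 36 genes of integrin activation and adaptors, 33 were tested, and 5 were higher and 7 lower in NKT-3 than in NKT-2, beside 10.6% of all genes higher and 29.0% in either direction (median difference 0.03, against -0.06 over all genes). The largest were Cd81, a tetraspanin (-2.11 ± 0.27), Skap2, an adaptor (0.86 ± 0.20), and Flna, filamin A, which competes with talin for beta chain tails (-0.74 ± 0.16), with limma adjusted p = 1.04e-06, 0.00158 and 0.000742. In DN1eP minus NKT-2, 11 were higher and 6 lower, beside 17.9% of all genes higher and 29.5% in either direction. Among them Fermt3, the kindlin of blood cells, was lower by -1.49 ± 0.28 (adjusted p = 0.000349). In DN1eP-NKT minus NKT-2, 5 were higher and 7 lower, beside 11.1% and 7.97% of all genes. Among them Rasgrp1, an activator of Ras in T cells, was higher by 1.71 ± 0.28 and the tetraspanin gene Cd9 lower by -1.90 ± 0.22 (limma adjusted p = 3.94e-05 and 1.87e-07).

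Of 17 genes listed with Cd44, 12 were tested, and 2 were higher and 2 lower in NKT-3 than in NKT-2, beside 10.6% of all genes higher and 29.0% in either direction (median difference -0.18, against -0.06 over all genes). Ptprc, the phosphatase CD45, was higher by 1.04 ± 0.17 (limma adjusted p = 3.32e-05). Hmmr, a hyaluronan-binding protein of the mitotic spindle, fell by 2.59 ± 0.31 (adjusted p = 5.12e-07). Cd74, the invariant chain and a partner of CD44, fell by 2.99 ± 0.90 (limma adjusted p = 0.0175), and it is also highly expressed in B cells, whose markers were at 141 FPKM in NKT-2 library 6. The part of the B cell markers in this fall was not tested. In DN1eP minus NKT-2, 2 of these genes were higher and 2 lower, beside 17.9% of all genes higher and 29.5% in either direction, with Ptprc higher by 1.69 ± 0.23 (limma adjusted p = 6.62e-06). In DN1eP-NKT minus NKT-2, 1 was higher and 0 lower, beside 11.1% and 7.97% of all genes: Selplg, which encodes PSGL-1, differed by 0.94 ± 0.20 (limma adjusted p = 0.000869).

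Across the 26 libraries, with the set difference subtracted, the profile of Itga1 was closest to those of Crim1, Nod1 and Pik3ap1 (Pearson r 0.97, 0.97 and 0.96). Itgb1 was closest to Klra10, Pygl and Styk1 (0.96, 0.94 and 0.93), Itgae to Lat2, Slc26a11 and Dennd4a (0.93, 0.93 and 0.92), and Itga4 to Ctse, Skil and Gimap6 (0.96, 0.94 and 0.92). Cd44 was closest to Il18rap, Myo1f and AW112010 (0.89, 0.88 and 0.88). The others had looser neighbours: Itpripl2, Epsti1 and Mcart6 for Itga2 (0.87, 0.87 and 0.86), Dcaf8, Rassf5 and Itpkb for Itgal (0.84, 0.80 and 0.78), Rac2, Arhgap15 and Gimap4 for Itgb2 (0.86, 0.85 and 0.84), and Thy1, Ppp2cb and Stk40 for Itgb7 (0.85, 0.85 and 0.82). The member pairs with the highest r, down to 0.63, began with Itga1, paired with Itgb1 (0.87), Itga2 (0.79), Itgae (0.75) and Cd44 (0.65). Itgb1 was also paired with Cd44 (0.76), Itgae (0.66) and Itga2 (0.64). The rest were Itga4 with Itgal (0.64), Itgal with Itgb2 (0.64) and Itga4 with Itgb2 (0.63). These are descriptions over libraries that share groups and library sets.

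Other rows overlap 3 of the members on the genome. Pelo lies inside Itga1 (chr13:115878563-115880366), Gsg2 inside Itgae (chr11:72948986-72951796), and Cerkl overlaps the end of Itga4 (chr2:79172648-79269145, all mm9). No source used here says whether the counting used strand, so reads in the overlaps could have gone to either gene. Pelo was at 7.32 to 10.0 FPKM in NKT-3 and 6.17 to 10.1 in NKT-2 in the higher-median set, which overlapped. In the lower-median set it was at 3.77 to 5.48 FPKM in NKT-3 and 0.798 to 2.16 in NKT-2, which, as for Itga1, did not overlap. In NKT-1, Pelo was at 1.74 to 4.02 FPKM in the lower-median set, which overlapped NKT-3. It was at 5.30 to 10.0 in the higher-median set of NKT-1. Itga1 reached 0.116 FPKM at most in NKT-1. In DN1eP-NKT, Pelo was at 12.98 to 22.52 FPKM, above the higher-median NKT-1 and NKT-2 libraries, as was Itga1. Pelo also lay above the higher-median NKT-3 libraries there, while Itga1 lay below them. In DN1eP, Pelo was at 0.75 to 2.68 FPKM, which overlapped the lower-median NKT-1 and NKT-2 libraries, unlike Itga1. Cerkl ran from 0 to 8.24 FPKM in DN1eP and from 0 to 0.707 in DN1eP-NKT, the groups in which Itga4 was above and below NKT-1 and NKT-2. The lower-median NKT-1 and NKT-2 libraries held 0.889 to 2.72 FPKM of Cerkl, inside the DN1eP range. The higher-median ones held 1.15 to 3.10 FPKM. Gsg2 stayed at or below 35.6 FPKM and was highest in DN1eP-NKT. The part of shared reads in the members' values was not tested.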

How the data were processed

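The authors deposited gene FPKM (fragments per kilobase of transcript, scaled to library depth) with a 95% interval, made with TopHat2 2.0.6 and Cufflinks 2.1.1 on mm9, per the submitters' processing notes. Fragment counts are not used here and depth is unknown. As a measure of precision, genes of 20 to 100 FPKM had intervals whose median half-width was 5.53% to 23.8% of the value in a library. It was 6.24% in DN1eP library 1 and 18.8% to 23.8% in the other DN1eP libraries. The lower-median NKT libraries, with which DN1eP was compared, had 5.53% to 6.31%. Values of rows with the same symbol were added up. Not used were 86 symbols absent from at least 1 library and 13 whose estimate had failed. All 9 members were among the 11663 genes at 1 FPKM or more in 4 or more libraries, which were tested.

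Values entered limma 3.58.1 (R 4.3.3) as log2(FPKM + 1) without further scaling, in a single model of all libraries with 8 coefficients, 1 for each group in each library set, and 18 residual degrees of freedom. Moderation used eBayes with trend and robust settings. Benjamini-Hochberg adjustment covered all tested genes, with a threshold of 0.05. A median of 11 FPKM divided the sets.

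The members, the gene lists and the tests were chosen with earlier results of these data known. All members are given in every comparison. 1 gene of the list around Cd44 is not reported here. From each list, up to 3 called genes per comparison with the largest change could be named, and those printed were selected with their values in view. For each member the 3 tested genes with the highest Pearson r are named. Alternatives were another pseudocount, other filters, scalings and designs, library weights and leaving out each library. Leaving out library 1 of DN1eP and of DN1eP-NKT together was added after seeing the data. The model was tested on simulated data.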

Additional observations from a re-analysis of the deposited data

Results flagged for a closer look

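Of 45 sets of a member's values in a group, 7 had 1 library far from the rest by Dixon's criterion. Chance meets it in about 1 of 20 such sets when the values share 1 distribution. For the NKT stages the 2 library sets were pooled, so that rate need not hold there. A library apart from its own library set could also be missed. In DN1eP all 3 cases were library 1, with Itga4 at 2.44 FPKM against 6.27 to 6.48 in the others, Itgb1 at 37.2 against 18.8 to 20.3, and Itgb2 at 548 against 304 to 326. In DN1eP-NKT both cases were also library 1, with Itga1 at 4.21 FPKM against 10.5 to 11.6 and Itgb1 at 46.4 against 73.3 to 78.3. Library 1 of each of these groups also had the narrowest intervals over genes of 20 to 100 FPKM. The median half-width was 6.24% in DN1eP library 1 against 18.8% to 23.8% in the others. In DN1eP-NKT it was 7.01% against 15.9% to 21.8%. The part of this split in the outlying values was not tested. In NKT-1, library 4 held Itga1 at 0.116 FPKM against 0 to 0.0164, all under the 1 FPKM of the filter. In NKT-3, library 4 held Itgb2 at 487 FPKM against 287 to 354.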

How the results depend on the processing

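Of the 10 comparisons, the counts of members called moved with few settings, and the cause was not tested in any of these cases. DN1eP minus NKT-3 gave 0 members and 2 with upper-quartile scaling, quantile normalization or library weights, 1 with no library set or an additive set term, 3 without library 1 of DN1eP and DN1eP-NKT together, and 0 to 3 with each library left out in turn. DN1eP-NKT minus DN1eP gave 3, but 5 with library weights, 7 without the subtraction and 2 to 4 with a library left out. DN1eP-NKT minus NKT-1 gave 5 and 3 to 5 with a library left out. With no library set in the fit the counts were 3 for NKT-3 minus NKT-2, 2 for DN1eP minus NKT-1, 2 for DN1eP minus NKT-2, 3 for DN1eP-NKT minus NKT-2 and 2 for DN1eP-NKT minus NKT-3. There 19 of 86 member values changed sign, 4 of them called in the report: Itgb1 to -0.19 in DN1eP minus NKT-2 and to 0.12 in DN1eP-NKT minus NKT-3, and Itgal to 0.17 in DN1eP-NKT minus NKT-2 and to 0.95 in DN1eP-NKT minus DN1eP. Without the subtraction Itgal was 0.95 and Itgb1 1.51 in the latter. Lower-median libraries alone gave 2 members in NKT-3 minus NKT-2 and 2 in NKT-3 minus NKT-1.

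Same-numbered libraries did not pair: 7 of 24 such pairs correlated above 0.1, as did 17 of 101 pairs of different number, and 7 of 23 libraries correlated best with their own number. With a replicate block DN1eP minus NKT-2 gave 0 members (Itga1 1.78, Itga4 0.88, Itgae 0.66 and Itgb1 0.65, limma adjusted p = 0.0552, 0.26, 0.305 and 0.337), DN1eP-NKT minus DN1eP 1, and NKT-3 minus NKT-2 5, without Itga2 (0.56, adjusted p = 0.0613).

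Counts over all genes moved by over 1.5 times in some fits. With only the compared libraries they went from 3926 to 2401 (DN1eP minus NKT-1), 3443 to 1372 (minus NKT-2), 2405 to 316 (minus NKT-3) and 117 to 49 (NKT-2 minus NKT-1). With the block they were 923 and 1016 (DN1eP minus NKT-2 and NKT-3), 2287 in place of 3691 (DN1eP-NKT minus DN1eP) and 72 (NKT-2 minus NKT-1). With no set they were 6136 (DN1eP-NKT minus DN1eP), 27 (NKT-2 minus NKT-1), 2180 in place of 4338 (NKT-3 minus NKT-1) and 1460 in place of 3381 (NKT-3 minus NKT-2), and without the subtraction 8098. Lower-median libraries alone gave 15, 2155 and 830 for the stage comparisons, and higher-median libraries 26 for NKT-2 minus NKT-1. Library weights gave 184 there and 4554 in place of 2725 for DN1eP-NKT minus NKT-3. NKT-2 minus NKT-1 gave 65 without the 2 NKT libraries with the most B cell markers and 45 to 166 with a library left out. DN1eP minus NKT-3 gave 1287 without NKT-3 library 6, and DN1eP-NKT minus NKT-1 gave 1067 in place of 1778 without NKT-1 library 2.

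Scaling moved the share of called genes that were higher by over 10 points: with upper-quartile scaling and quantile normalization from 36.6% to 48.8% and 48.1% (NKT-3 minus NKT-2), 28.6% to 45.6% and 46.8% (NKT-3 minus NKT-1), 56.4% to 71% and 76.6% (NKT-2 minus NKT-1) and 78.6% to 51% and 50.7% (DN1eP minus NKT-3). Quantile normalization alone did so for DN1eP minus NKT-2 (60.7% to 49%) and DN1eP-NKT minus NKT-2 (58.3% to 47.7%) and NKT-3 (64.1% to 48.8%). The only-compared-libraries fit could not be made for DN1eP-NKT minus DN1eP. Depth is unknown, and the wide intervals of Itga2 limit its values in single libraries.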
